A study of Mus musculus with 8 samples.

Results

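The genes described here make, carry and remove retinoic acid, the hormone-like acid formed from vitamin A. They were followed in whole mouse uteri with and without deletion of Foxa2, the gene of a forkhead DNA-binding protein found in uterine gland epithelium. In all, 9 gene symbols defined the group: Rdh10, Dhrs9, Dhrs3, Aldh1a1, Aldh1a2, Aldh1a3, Crabp1, Crabp2 and Cyp26a1. All 9 were measured, each by 1 probe set, among 19938 genes that the array annotation names by a single symbol. The values did not enter the choice of symbols in the rule, but the group was drawn up with earlier results of these arrays known.

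Controls were Pgr+/+ Foxa2+/+ females (n = 4). Deleted females were PgrCre/+ Foxa2flox/flox (n = 4), in which Cre is made from 1 allele of the progesterone receptor gene and so acts in cells that use Pgr, such as uterine epithelium, stroma and muscle. Cre and the loss of 1 intact Pgr allele therefore go with the Foxa2 deletion and cannot be told apart from it. The Pgr probe set, whose position relative to the Cre insertion was not known here, had 11.15, 11.27, 11.24 and 11.26 in controls and 11.73, 11.35, 11.51 and 11.81 in deleted uteri. It was higher in all 4 deleted uteri than in any control, and its log2 change was 0.37 (SE 0.10, adjusted p = 0.0428 over all genes, limma). That call was lost under repeated quantile normalisation, with every probe set tested, with the replicate block, and without any 1 control or Foxa2-deleted replicate 1 or 4 (adjusted p of up to 0.105). Females of both genotypes were mated to vasectomised wild-type males and sampled on day 3.5 of pseudopregnancy, with the day of the plug as day 0.5, and each uterus gave 1 array. The labels give no ages. The values are log2 intensities after RMA, so a difference of 1 is a doubling of signal. Precision is limited by the small number of uteri.

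Retinol is oxidised to retinal by retinol dehydrogenases and retinal is oxidised to retinoic acid by the ALDH1A enzymes. Inside the cell retinoic acid is held by CRABP proteins, acts on nuclear receptors of the RAR and RXR families, and is hydroxylated for removal by CYP26 enzymes. In the mouse uterus CYP26A1 is known from the luminal epithelium around the time of implantation, and excess retinoic acid is known to disturb the conversion of stroma to decidua.

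Retinoic acid receptors bind DNA at paired copies of a 6-base element, and the start sites of these genes were searched for such pairs. RefSeq start sites on GRCm38.p6 were held for 6 of the 9 genes, with 9 start sites between them. The 250 bases before the start are shown for Cyp26a1, the breakdown gene that carries such a pair, and for Dhrs9 and Aldh1a2, which rose. Capitals mark a pair of elements with its spacer, or a single element.
Cyp26a1, chr19:37697558-37697807, plus strand: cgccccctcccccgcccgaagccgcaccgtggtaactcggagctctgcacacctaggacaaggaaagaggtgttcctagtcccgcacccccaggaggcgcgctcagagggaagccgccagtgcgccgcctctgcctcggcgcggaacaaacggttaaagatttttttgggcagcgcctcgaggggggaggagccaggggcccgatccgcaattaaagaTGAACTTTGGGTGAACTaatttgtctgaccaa
Dhrs9, chr2:69380212-69380461, plus strand: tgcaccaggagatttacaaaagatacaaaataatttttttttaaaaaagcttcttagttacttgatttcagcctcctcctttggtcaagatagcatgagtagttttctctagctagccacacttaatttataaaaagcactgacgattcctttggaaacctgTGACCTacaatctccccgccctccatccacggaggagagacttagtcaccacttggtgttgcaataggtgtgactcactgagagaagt
Aldh1a2, chr9:71215539-71215788, plus strand: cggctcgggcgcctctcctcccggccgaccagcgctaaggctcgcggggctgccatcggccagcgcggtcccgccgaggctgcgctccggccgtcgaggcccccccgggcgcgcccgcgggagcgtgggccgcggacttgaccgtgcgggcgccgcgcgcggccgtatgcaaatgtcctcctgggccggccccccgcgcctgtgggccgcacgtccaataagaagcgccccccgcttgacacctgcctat

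The pair in Cyp26a1 lies on the minus strand, from 32 to 16 bases before the start, and is a direct repeat with a spacer of 5 bases. Pairs were sought on both strands. Each element had to read AGGTCA in the usual form, or else begin with G in place of A (GGGTCA), have T as the third letter (AGTTCA), or carry both changes (GGTTCA). A spacer of 5 was found in 29 of 32851 start-site windows of the same length (0.0883%), and a spacer of 2 or 1 in 0.174% and 0.164%. Of the 9 windows of these genes only that of Cyp26a1 held a pair of any of these spacings. The single element AGGTCA was present in the Dhrs9 window, 88 to 83 bases before the start on the minus strand, against 14% of all windows. The forkhead letters TGTTTAC, present in 3.17% of windows, were in none of the 9. The windows also differed in base composition, with 40.4% G and C for Dhrs9, 77.6% for Aldh1a2 and 61.6% for Cyp26a1, where the median window had 52.4%.

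The arrays followed their labels: the Foxa2 probe set lay between 8.61 and 8.82 in controls and between 8.20 and 8.22 in deleted uteri (log2 change -0.52, SE 0.05, adjusted p = 0.0013, limma). The position of that probe set relative to the deleted part was not known here. Array medians ran from 8.25 to 8.32. Deleted uteri were less alike than controls, with correlations of whole profiles (over genes, not independent of each other) of 0.9805 to 0.99 against 0.9961 to 0.9968. Tissue markers were checked by list. Of 13 epithelial genes 6 rose and none fell, led by Krt19 and Elf3 (log2 changes 1.86 and 1.78), and their mean level ran from 9.87 to 10.08 in controls and from 10.39 to 11.34 in deleted uteri. Of 10 gland genes, Foxa2 itself among them, 6 fell and none rose, led by Cxcl15 and Spink1 (-3.99 and -4.28). Without Foxa2, 5 of 9 fell, and their mean level ran from 9.0 to 9.55 in controls and from 7.52 to 7.93 in deleted uteri. Of 12 stromal genes 2 fell and 1 rose, 4 of the 12 changes were positive and the median was -0.215. Of 9 smooth muscle genes 1 rose, all 9 changes were positive and the median was 0.23. Of 6 oviduct genes 1 fell, and of 9 ovary genes 1 rose, the activin subunit gene Inhba, which other tissues use too. Over all genes 4.5% rose and 6.58% fell. None of 6 mesothelial genes passed.

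In deleted uteri 5 of the 9 retinoid genes rose and none fell. Over all genes 11.1% changed, 4.5% higher and 6.58% lower, at the same threshold, an adjusted p under 0.05 by Benjamini-Hochberg over all genes in limma. The higher and lower shares depend on the scaling, with 898 higher and 1311 lower as deposited, 1082 and 982 after centring on array medians, 1011 and 939 after repeated quantile normalisation, and 960 and 949 after cyclic loess. The count of 5 and 0 for the retinoid genes was the same under these 3 scalings. All 5 changed at least 1.5-fold, as did 1.76% of all genes in that direction. The median log2 change of the 9 genes was 0.59, against 0.0075 over all genes. In the 5 that rose, all 4 deleted uteri lay above all 4 controls, a pattern seen in 9.55% of all genes. Whole tissue does not tell more cells of a type from more RNA per cell.

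**Figure D1:**
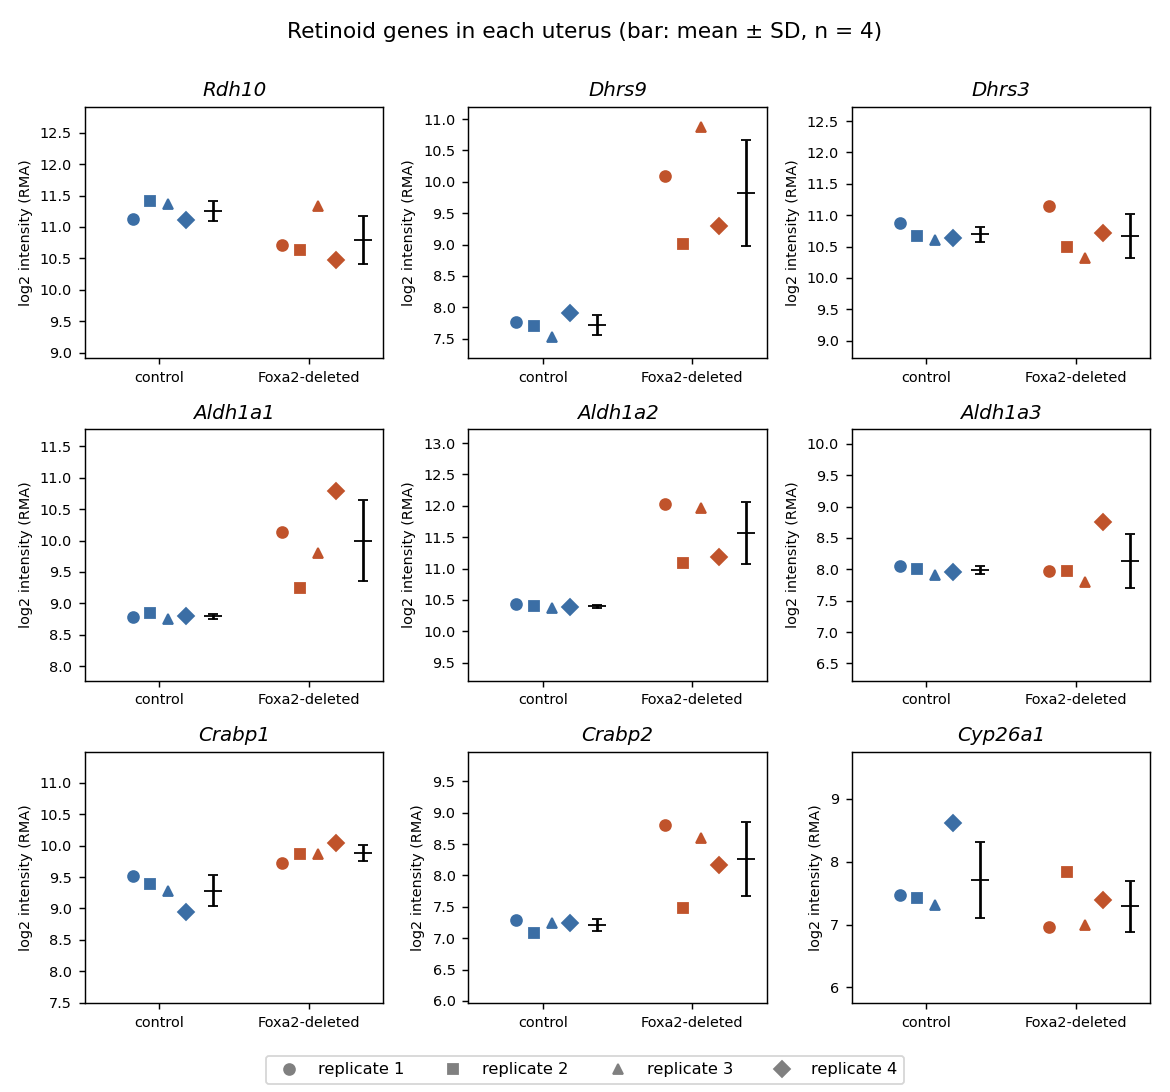
Log2 intensity (RMA) of the 9 retinoid genes in each uterus, with control uteri in blue, Foxa2-deleted uteri in orange, a symbol per replicate number, and the mean ± SD of 4 uteri in black; every panel spans the same number of log2 units. The groups separate in Dhrs9, Aldh1a1, Aldh1a2, Crabp1 and Crabp2 and overlap in the other 4 panels.

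The first step, retinol to retinal, is represented by Dhrs9 and Rdh10. Dhrs9 encodes a short-chain dehydrogenase that oxidises retinol and also some hydroxysteroids. Its log2 values were 7.76, 7.70, 7.52 and 7.91 in controls and 10.10, 9.01, 10.87 and 9.29 in deleted uteri, replicates 1 to 4. The lowest deleted uterus was thus 1.10 above the highest control, and replicate 3 was the highest. Dhrs9 rose by 2.10 (SE 0.35, 95% interval 1.29 to 2.90, adjusted p = 0.0122, limma), a 4.27-fold difference. The call held with each uterus left out in turn, at adjusted p from 0.00291 to 0.0456.

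Rdh10 encodes the retinol dehydrogenase on which most retinoic acid synthesis in the embryo depends. Controls had 11.12, 11.42, 11.37 and 11.11 and deleted uteri 10.71, 10.64, 11.34 and 10.47. In 3 deleted uteri the level lay below every control, and replicate 3 lay among the controls. The log2 change was -0.47 (SE 0.17, 95% interval -0.86 to -0.07) and did not pass (adjusted p = 0.110, limma). Without Foxa2-deleted replicate 3 it was -0.65 and passed (adjusted p = 0.00761), and it also passed with array quality weights (-0.52, adjusted p = 0.036). That same uterus was the highest for Dhrs9 and for the epithelial markers, and the part of epithelium in either gene was not tested.

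Dhrs3 encodes the reductase that turns retinal back into retinol and is known to be induced by retinoic acid. Controls had 10.87, 10.67, 10.61 and 10.64 and deleted uteri 11.14, 10.50, 10.32 and 10.71. The deleted uteri lay on both sides of the controls, with replicate 1 above all of them and replicates 2 and 3 below all of them. The log2 change was -0.03 (SE 0.16, 95% interval -0.39 to 0.33, adjusted p = 0.913, limma). Its sign turned under several settings.

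The second step, retinal to retinoic acid, is carried out by 3 related enzymes. Aldh1a1 had values of 8.78, 8.85, 8.75 and 8.80 in controls and 10.14, 9.25, 9.80 and 10.79 in deleted uteri. Controls spanned 0.1 of a log2 unit and deleted uteri 1.54, with replicate 4 the highest and replicate 2 the nearest to controls. Aldh1a1 rose by 1.20 (SE 0.27, 95% interval 0.59 to 1.81, adjusted p = 0.0269, limma). The call was lost without any 1 control or without Foxa2-deleted replicate 1, at adjusted p of up to 0.0793.

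Aldh1a2, the main retinoic acid synthesis enzyme of the early embryo, had 10.43, 10.40, 10.37 and 10.39 in controls and 12.03, 11.09, 11.96 and 11.18 in deleted uteri. Replicates 1 and 3 of the deleted uteri were high and replicates 2 and 4 were lower, yet above every control. It rose by 1.17 (SE 0.21, 95% interval 0.69 to 1.64, adjusted p = 0.0147, limma). The call held with each uterus left out, narrowly without control replicate 2 or 3 (adjusted p = 0.0499). Aldh1a2 is known from mesothelium, whose 6 markers had a mean level of 9.16 to 9.53 in controls and 9.11 to 9.47 in deleted uteri, overlapping between the genotypes. The part of mesothelium or of any other cell type in the rise of Aldh1a2 was not tested.

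Aldh1a3 had 8.06, 8.01, 7.91 and 7.96 in controls and 7.98, 7.98, 7.79 and 8.76 in deleted uteri. Only replicate 4 of the deleted uteri was above the controls, the uterus that was also highest for Aldh1a1. The log2 change was 0.14 (SE 0.18, 95% interval -0.27 to 0.56, adjusted p = 0.617, limma), and without replicate 4 it was -0.068.

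**Figure D2:**
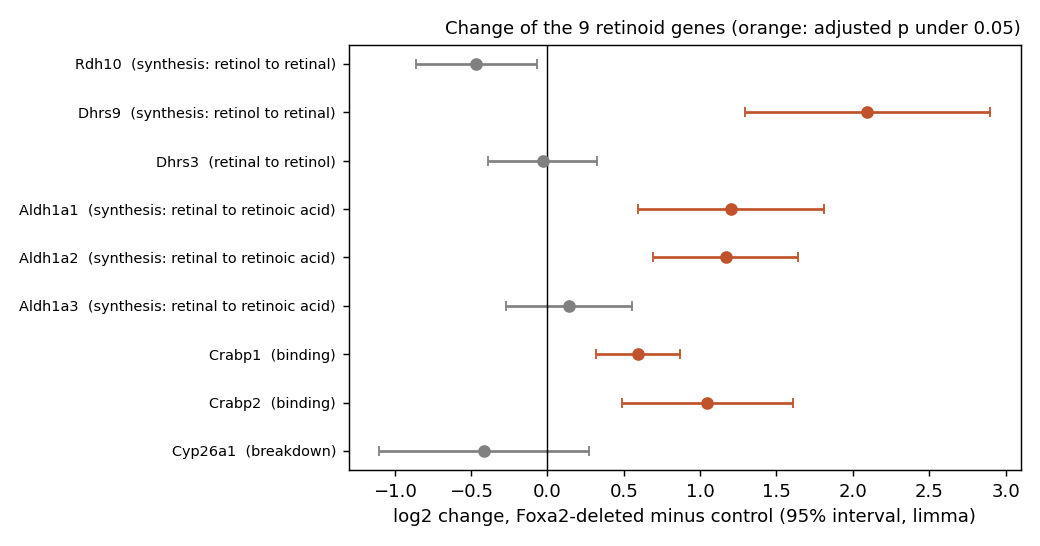
Log2 change of each gene, Foxa2-deleted minus control, with its 95% interval from limma, ordered by step of the pathway; genes past an adjusted p of 0.05 are orange. Dhrs9 has the largest change at 2.10, and the intervals of Dhrs3, Aldh1a3 and Cyp26a1 include 0.

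Both binding proteins rose. Crabp2, which carries retinoic acid to the nucleus, had 7.29, 7.08, 7.25 and 7.24 in controls and 8.81, 7.48, 8.60 and 8.16 in deleted uteri. Replicate 2 of the deleted uteri was only 0.19 above the highest control, and replicates 1 and 3 were the highest. Crabp2 rose by 1.05 (SE 0.25, 95% interval 0.49 to 1.61, adjusted p = 0.0325, limma). The call was lost without any 1 control or without Foxa2-deleted replicate 1 or 3, at adjusted p of up to 0.0936.

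Crabp1, the other cytosolic carrier, is commonly linked to the holding and breakdown of retinoic acid. Its values were 9.52, 9.39, 9.28 and 8.94 in controls and 9.73, 9.86, 9.87 and 10.04 in deleted uteri. Here the deleted uteri were close together (SD 0.13) and the controls were spread (SD 0.25), the reverse of the other 4 genes that rose. Crabp1 rose by 0.59 (SE 0.12, 95% interval 0.32 to 0.87, adjusted p = 0.0212, limma). The call was lost without control replicate 2 (adjusted p = 0.0537) or control replicate 3 (adjusted p = 0.0647).

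Cyp26a1, the breakdown enzyme whose promoter window holds the receptor pair printed above, had 7.47, 7.43, 7.31 and 8.61 in controls and 6.96, 7.83, 6.99 and 7.39 in deleted uteri. Control replicate 4 stood 1.14 above the next control, and the groups overlapped. The log2 change was -0.41 (SE 0.30, 95% interval -1.10 to 0.28, adjusted p = 0.374, limma), and without control replicate 4 it was -0.11. A rise of the size seen in Aldh1a1 or Crabp2 lies outside the interval.

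Related genes were set against each other within each uterus, for 6 pairs chosen after the values were seen. A shift common to all genes of an array cancels there, but scaling that depends on level does not. The change of Dhrs9 exceeded that of Rdh10 by 2.56 (SE 0.31) and that of Dhrs3 by 2.13 (SE 0.48). That of Aldh1a1 exceeded that of Aldh1a3 by 1.06 (SE 0.20). In these 3 pairs the groups did not overlap, with a two-sided exact permutation p = 0.029 over the 70 arrangements, the smallest possible, and 0.057 adjusted over the 6 pairs. Aldh1a1 and Aldh1a2 differed by 0.03 (SE 0.40, exact permutation p = 1), Aldh1a2 and Aldh1a3 by 1.03 (SE 0.41, exact permutation p = 0.086, adjusted 0.129), and Crabp1 and Crabp2 by -0.46 (SE 0.35, exact permutation p = 0.286, adjusted 0.343). No pair passed after adjustment, but p = 0.029 was the smallest exact permutation p open to any pair. As the pairs were also chosen after the values were seen, no conclusion is drawn from these p.

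The uteri did not keep 1 order across the genes that rose. Foxa2-deleted replicate 2 was nearest the control mean for Dhrs9, Aldh1a1, Aldh1a2 and Crabp2, at 1.29, 0.46, 0.69 and 0.27 above it, and replicate 1 was nearest for Crabp1 at 0.45. The farthest uterus was replicate 3 for Dhrs9 (3.15), replicate 4 for Aldh1a1 (2.0) and Crabp1 (0.76), and replicate 1 for Aldh1a2 (1.63) and Crabp2 (1.60). The SD was larger in deleted uteri than in controls for 7 of the 9 genes, as for 70.3% of all genes, and for Aldh1a2 it was 0.50 against 0.03. The fit assumes 1 spread for both groups. The two-sided exact permutation p of the 4 genes whose groups overlapped was 0.0857 for Rdh10, 0.886 for Dhrs3, 0.83 for Aldh1a3 and 0.371 for Cyp26a1. For the 5 genes that rose it is fixed at its smallest value, 0.029, by the separation of the groups and says nothing further.

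Marker levels moved beside these genes. The mean of the 13 epithelial markers was 10.62, 10.39, 11.34 and 10.76 on deleted replicates 1 to 4. It was highest in replicate 3 and lowest in replicate 2, as was Dhrs9, but replicates 1 and 4 stood in the other order. Among controls the epithelial mean was highest in replicate 3 (10.08) and lowest in replicate 4 (9.87). Dhrs9 was instead lowest in control replicate 3 (7.52) and highest in control replicate 4 (7.91). The part of epithelium in the changes of the retinoid genes was not tested. A list of 10 adipocyte genes was written after the profiles nearest that of Crabp1, named below, were seen, and is given without a test. Their mean level was 10.11, 9.63, 8.70 and 8.85 in control replicates 1 to 4 and 9.61, 10.58, 10.19 and 10.40 in deleted replicates. Of the 10, Fabp4 and Plin4 rose, none fell, and 9 overlapped between the genotypes. Every change was positive, with a median log2 change of 0.885. Over all genes 9.55% lay wholly above controls in deleted uteri and 11.6% wholly below. Crabp1 and the adipocyte mean were both highest among controls in replicate 1 and both lowest among deleted uteri in replicate 1. In that last uterus the adipocyte mean was below that of control replicates 1 and 2, while Crabp1 was above every control. The part of fat in the change of Crabp1 was not tested.

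**Figure D3:**
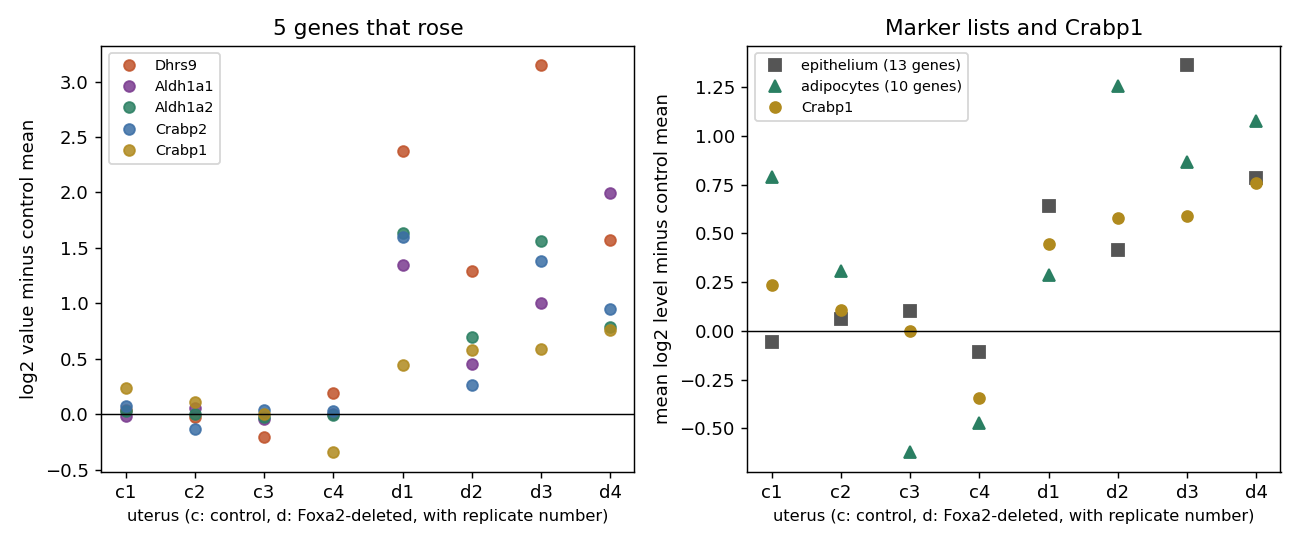
Left, log2 value minus the control mean for the 5 genes that rose, in each control (c) and Foxa2-deleted (d) uterus; right, the same for the mean of 13 epithelial markers, the mean of 10 adipocyte markers and Crabp1. On the left all deleted uteri lie above the controls within each gene, and on the right the adipocyte mean overlaps between genotypes while the epithelial mean does not.

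Genes with the most similar profiles were found for each gene that rose, as the smallest root mean square difference over the 8 arrays between log2 values centred on the control mean. For Dhrs9 these were the mucin gene Muc20 (difference 0.179), the peptidylarginine deiminase gene Padi2 (0.187) and Bcl2l15 (0.204), with log2 changes of 2.15, 2.02 and 2.01. For Aldh1a1 they were Wnt7a, a WNT ligand of the uterine epithelium (0.142), the anion transporter gene Slc26a7 (0.236) and Hmgcll1 (0.241). For Aldh1a2 they were Papln (0.087), Tmem200a (0.0897) and Greb1, an estrogen-induced cofactor of the estrogen receptor (0.0919), with changes of 1.15, 1.18 and 1.16. For Crabp2 they were Lrig1 (0.114), the channel gene Asic2 (0.138) and the prostaglandin D2 receptor gene Ptgdr2 (0.139). For Crabp1 they were the amino acid transporter gene Slc36a2 (0.0998), the growth hormone receptor gene Ghr (0.149) and Slc7a10 (0.150). Small differences mean only that the profiles resemble each other over these uteri.

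The rest of the retinoid system was read from lists written with earlier results of these arrays known. Of 71 other retinoid genes in 5 lists, 64 were measured and the remaining 7 were not analysed here. Of the 64, 3 rose and 7 fell, or 1 higher and 2 lower at 1.5-fold or more, with a median log2 change of 0.03. Against the 4.5% higher and 6.58% lower over all genes these counts are 3 and 7 of 64. The counts moved with single uteri, from 0 to 6 higher and from 3 to 10 lower.

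Among 20 other enzymes that oxidise or reduce retinol or retinal, 5 fell and 1 rose, with a median log2 change of -0.12. Rdh1 encodes a microsomal retinol dehydrogenase. It had 9.28, 9.63, 9.70 and 9.29 in controls and 8.19, 8.42, 8.09 and 8.09 in deleted uteri, and fell by 1.28 (SE 0.12, adjusted p = 9.4e-04, limma). Rdh9, a related enzyme, had 8.58, 8.89, 8.71 and 8.65 in controls and 7.78, 7.58, 7.76 and 7.62 in deleted uteri. It fell by 1.02 (SE 0.08, adjusted p = 3.8e-04, limma). Both calls held with each uterus left out, and both genes were low in every deleted uterus, replicate 2 included.

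Rdh16, next to Rdh9 in gene order on GRCm38.p6 as Rdh9 is to Rdh1, fell by 0.34 (SE 0.06, adjusted p = 0.0149, limma), a call lost without control replicate 3 (adjusted p = 0.0514). These 3 genes are similar copies in a row, so signal shared between their probe sets cannot be told apart here. Sdr16c6, a relative of the retinol dehydrogenase gene Sdr16c5, fell by 0.57 (SE 0.08, adjusted p = 0.00707, limma). The aldo-keto reductase gene Akr1b8 fell by 0.29 (SE 0.07, adjusted p = 0.0347, limma). That call was lost under repeated quantile normalisation (adjusted p = 0.0556), under cyclic loess (adjusted p = 0.0598) and with the replicate block (adjusted p = 0.0564). It was also lost when Foxa2-deleted replicate 1 or 3, or any control but replicate 1, was left out (adjusted p of up to 0.101). Adh1, a cytosolic alcohol dehydrogenase that also oxidises retinol, went the other way. Its mean was 11.88 ± 0.09 (SD, n = 4) in controls, and it had 13.09, 12.51, 12.79 and 12.21 in deleted uteri. Adh1 rose by 0.77 (SE 0.16, adjusted p = 0.0233, limma). The call of Adh1 was lost without any 1 control (adjusted p of up to 0.0727) and with the replicate block (adjusted p = 0.0555).

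Of 12 genes for uptake, carriage and storage of retinoids, 2 rose and 1 fell, with a median log2 change of 0.17. Stra6l, a receptor for retinol binding protein related to Stra6, rose by 0.25 (SE 0.06, adjusted p = 0.0316, limma), and Dgat1, an acyltransferase that can esterify retinol, by 0.34 (SE 0.07, adjusted p = 0.0238, limma). Scarb1, a scavenger receptor that takes up carotenoids and lipoprotein cholesterol, fell by 0.54 (SE 0.12, adjusted p = 0.024, limma). Each of these 3 calls was lost without some single uteri: control replicate 2, 3 or 4 for Stra6l and Dgat1, control replicate 1, 3 or 4 for Scarb1, and also Foxa2-deleted replicate 1 for Stra6l and Scarb1. The highest adjusted p in those fits were 0.0914, 0.0781 and 0.0781 for Stra6l, Dgat1 and Scarb1. With the replicate block all 3 calls were lost too (adjusted p = 0.0675, 0.0711 and 0.0748, limma).

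None of the 6 nuclear receptors of retinoids passed. Of 14 receptor and coregulator genes 1 fell and none rose, with a median log2 change of -0.07. The log2 changes of Rara, Rarb and Rarg were 0.15, -0.08 and 0.12, and those of Rxra, Rxrb and Rxrg were -0.11, -0.11 and 0.26, with adjusted p from 0.0906 to 0.519 (limma). Rxrg passed without control replicate 1 (adjusted p = 0.049, limma). Rara passed in 1 of the fits with a uterus left out (adjusted p = 0.0446, limma). Deleted uteri lay wholly above controls for Rarg and wholly below them for Rxra and Rxrb, but by small amounts, as with Rxra at 9.63 to 9.74 against 9.78 to 9.83. Over all genes 9.55% lay wholly above and 11.6% wholly below, so 1 and 2 of 6 are read against those shares. The 1 gene that fell was Nr2f2, also counted among the stromal markers, which encodes the orphan receptor COUP-TFII of the uterine stroma. It fell by 0.42 (SE 0.10, adjusted p = 0.0341, limma), a call lost without any 1 control or without Foxa2-deleted replicate 1 (adjusted p of up to 0.0995). The call of Nr2f2 was also lost with the replicate block (adjusted p = 0.052).

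The other breakdown enzymes Cyp26b1 and Cyp26c1 had log2 changes of 0.19 (SE 0.08, adjusted p = 0.164) and 0.11 (SE 0.05, adjusted p = 0.136, limma). With them, none of the 4 remaining genes for forming, binding or removing the acid passed, and their median was 0.17. Of these, Aldh8a1, an enzyme for the 9-cis form, had a change of 0.15 (adjusted p = 0.126, limma). Another list held 19 genes known to respond to retinoic acid in other tissues. It left out the 9 genes of the group, Dhrs3 among them. Of the 19, none passed at the adjusted threshold and the median was 0.05. At an unadjusted p under 0.05 there were 5 of them (26.3%), Nrip1, Tgm2, Meis1, Hic1 and Ccnd1, against 31.5% of all genes. The same count was 2 of 4, Aldh8a1 and Cyp26c1, for the remaining genes that form, bind or remove the acid. It was 7 of 14 for receptors and coregulators, 10 of 20 for retinol and retinal enzymes, and 6 of 12 for uptake and storage. The nearest to the threshold were the coregulator gene Nrip1 (log2 change 0.20, adjusted p = 0.0718) and the transglutaminase gene Tgm2 (0.35, adjusted p = 0.0825, limma). Nrip1 passed under repeated quantile normalisation, cyclic loess and array quality weights (adjusted p down to 0.0457) and without Foxa2-deleted replicate 4 (adjusted p = 0.0368). Tgm2 passed with array quality weights (adjusted p = 0.0317) and without that same uterus (adjusted p = 0.0185).

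**Figure D4:**
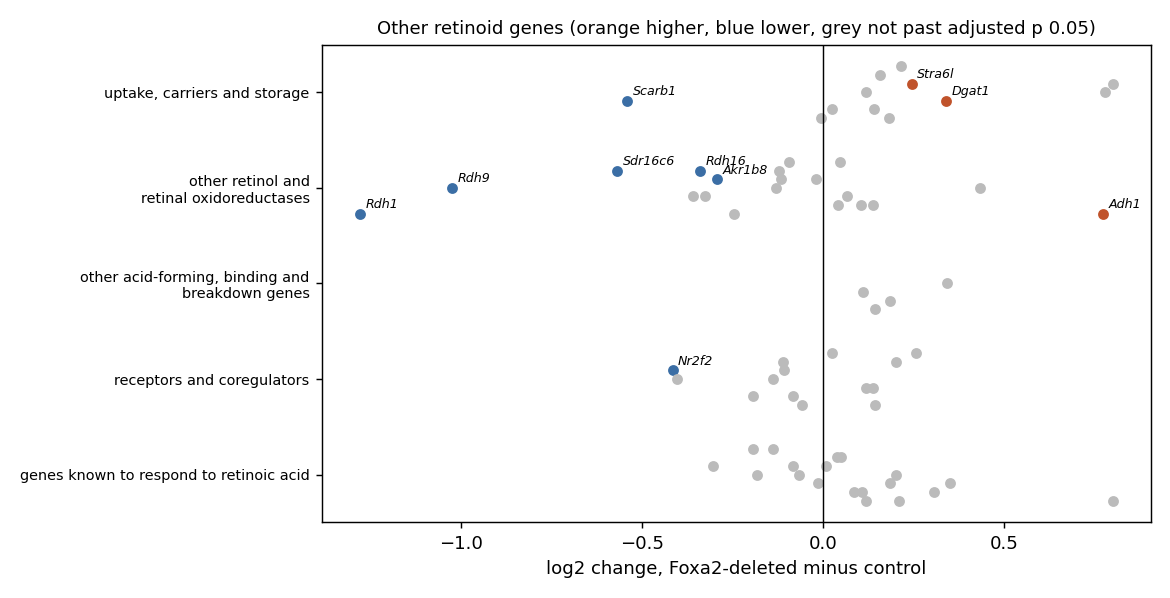
Log2 change, Foxa2-deleted minus control, of the other retinoid genes in 5 lists, 1 point per gene; orange points rose, blue points fell and grey points did not pass an adjusted p of 0.05, and 5 genes are in 2 lists. Rdh1 at -1.28 and Rdh9 at -1.02 lie farthest to the left, and no gene of the retinoic acid response list is coloured.

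**Figure D5:**
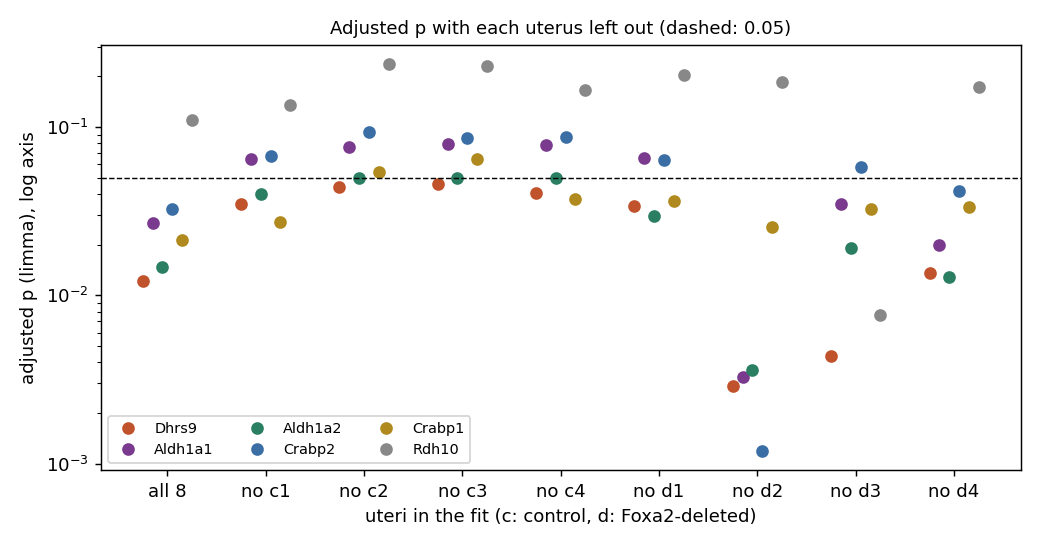
Adjusted p (limma, log axis) of the 5 genes that rose and of Rdh10 in the fit of all 8 uteri and with each control (c) or Foxa2-deleted (d) uterus left out; the dashed line is 0.05. Dhrs9 and Aldh1a2 stay under the line in all 9 fits, Rdh10 crosses it only without Foxa2-deleted replicate 3, and the other 3 genes cross above it in some fits.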

How the data were processed

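Total RNA (150 ng) from each of 8 whole uteri was labelled with biotin by an Affymetrix whole-transcript protocol, per the labels' protocols. The authors deposited log2 intensities made with RMA, per the submitters' processing notes, which also name limma. RMA sets the probe values of all arrays to a common distribution before they are combined into probe sets. The deposited values still differ between arrays, with medians of 8.25 to 8.32. RMA also compresses dim probe sets, so changes of dim genes are understated. Not given in the sources used here were versions, build and probe annotation, and no detection calls come with the values, so which genes lie above background is unknown.

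Of 35556 probe sets, 21789 have 1 symbol in GEO's platform annotation, 1621 several and 12146 none. Entrez identifiers of 21698 matched RefSeq's GRCm38.p6 table and 0 symbols needed changing. Each gene took its probe set of highest mean, giving 19938 genes. Genotypes were compared with lmFit and eBayes (limma 3.58.1, R 4.3.3) without covariates, with Benjamini-Hochberg over all genes. Errors are SE of the fit or SD over 4 uteri, which the labels call biological replicates. In simulated data with 19938 genes the fit called 83% of 100 genes set to change 1.5-fold. Of genes set to 2-fold and 4-fold, 50 each, it called 98% and 100%. It also called 9 genes that had been left as they were. The simulated noise was normal, was drawn independently for each gene and array, and had the same SD in both groups. No further genes were set to change, while in the arrays 11.1% of all genes were called. In the arrays the SD was larger in deleted uteri for 70.3% of genes, so these shares may not hold for them.

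The members and the lists (5 of retinoid genes, 7 of markers) were chosen with earlier results of these data known. Named were all members, in each retinoid list up to 6 genes past the threshold or else the 2 with the smallest p, the RAR, RXR and CYP26 genes, Foxa2 and Pgr, up to 2 markers per list, and the 3 nearest profiles of each gene that rose. Names outside this rule are the adipocyte genes, Meis1, Hic1, Ccnd1 and those of the closing section, chosen after their values were seen. Alternatives covered scaling, filters on dim genes, probe set choice, the variance model, array weights, a replicate block and each array left out.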

Additional observations from a re-analysis of the deposited data

Results flagged for a closer look

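Single uteri stood far from the other 3 of their group, by the gap to the nearest value over the group's whole range, in 8 of 138 groups checked (69 genes), while chance flags about 1 in 20. Control replicate 4 was high for Cyp26a1, at 8.61. Foxa2-deleted replicate 3 was high for the gland gene Cxcl15, at 6.25. Control replicate 1 was high for the smooth muscle gene Cnn1, at 12.09, and control replicate 4 was low for the axonemal dynein gene Dnah5, at 7.62. Among genes with a profile near that of Dhrs9, control replicate 1 was low for Padi2, at 8.58. Among genes named after their values were seen, control replicate 4 was high for Lrat, at 8.25, control replicate 2 was low for Hic1, at 10.29, and Foxa2-deleted replicate 1 was high for Ccnd1, at 11.43.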

How the results depend on the processing

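The 5 higher and 0 lower retinoid genes were also found with 3 other scalings, without the dimmest 25% of genes, with probe sets averaged, with every probe set tested, with trend and robust eBayes and at 1.5-fold. Without the dimmer 50% of genes Crabp2, Aldh1a3 and Cyp26a1 were not tested and 4 were higher. There the other retinoid genes lower were 4, and all genes higher 533. With array quality weights 1 retinoid gene, Rdh10, was lower, 6 of the other retinoid genes were higher and 1351 of all genes were higher. At 1.5-fold 653 of all genes were called, 351 higher and 302 lower, with 1 and 2 of the other retinoid genes. Replicate numbers are not stated to pair the animals. Correlations of deviations across genes were -0.0506 to 0.0568 for same-numbered uteri and -0.142 to 0.121 for the others. These values cannot show whether animals were paired. With the replicate block 3 retinoid genes were higher, while Aldh1a1 and Crabp1 did not pass (adjusted p = 0.0507 and 0.0674, limma). Of the other retinoid genes 0 were higher and 4 lower there, and 1062 of all genes were called, 435 higher and 627 lower. With each uterus left out in turn, retinoid genes higher ranged from 2 to 5 and lower from 0 to 1, other retinoid genes higher from 0 to 6 and lower from 3 to 10, and all genes called from 556 to 3059, higher from 196 to 1374 and lower from 348 to 1777. Fits with 7 uteri have fewer samples, and the cause of the other shifts was not tested. The log2 change of Dhrs3 turned positive with array quality weights (0.066) and without control replicate 1 or Foxa2-deleted replicate 2 or 3, and ranged from -0.19 to 0.086 with each uterus left out. That of Aldh1a3 ranged from -0.068 to 0.255 and was negative without Foxa2-deleted replicate 4. With no detection calls, whether the dimmer members lie above background is unknown.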

Other observations

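Lrat, which esterifies retinol for storage and is named here after its values were seen, had 7.50, 7.61, 7.51 and 8.25 in controls and 9.60, 7.98, 8.56 and 7.93 in deleted uteri. The log2 change was 0.80 (SE 0.35) and did not pass (adjusted p = 0.160, limma), and Foxa2-deleted replicate 1 was the highest. Control replicate 4, the highest control for Lrat, was also the highest for Cyp26a1.

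Rbp4, the carrier of retinol in blood, and Lpl, a lipase that helps cells take up retinyl esters, are named on the same terms. Rbp4 had 9.51, 9.14, 8.66 and 8.79 in controls and 8.64, 9.77, 8.94 and 9.61 in deleted uteri. Lpl had 10.47, 10.21, 9.56 and 9.35 in controls and 10.01, 11.02, 10.78 and 10.89 in deleted uteri. Both are known from adipocytes too, and for both control replicate 1 was the highest control and Foxa2-deleted replicates 1 and 2 were the lowest and highest deleted uteri, as for the adipocyte mean. Neither passed (log2 changes 0.22 and 0.78, adjusted p = 0.613 and 0.108, limma). The part of fat in the values of either gene was not tested.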
